A study of Drosophila melanogaster with 12 samples.

Results

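Head transcripts were compared between the hours around the subjective switch from cold to warm and the hours around the opposite switch, in flies that no longer experienced either. The flies were adult cn bw Drosophila melanogaster, a strain with mutations in the eye pigment genes cinnabar and brown. All 12 collections share that genotype, rearing in constant darkness, and prior exposure to a daily thermocycle of 12 h at 18 °C and 12 h at 25 °C. Heads were then taken every 4 h over 2 days of darkness at a steady 25 °C, and each collection was hybridized to 1 Affymetrix Drosophila Genome 1 array. Times (AA) count from the onset of the subjective cryophase, the half-day that had been cold, so the subjective thermophase starts at 12 h.

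The cold-to-warm window holds the 6 arrays of AA10, AA14, AA18, AA34, AA38 and AA42, and the warm-to-cold window holds the 6 arrays of AA2, AA6, AA22, AA26, AA30 and AA46. Together these are all 12 arrays of the series, divided by collection time alone and not by any measured level. Each window has 3 arrays on each day, at 10, 14 and 18 h for the cold-to-warm window and at 22, 2 and 6 h for the warm-to-cold window. Both windows therefore extend further past their switch than before it. The levels are log2 values that the authors computed with RMA (robust multi-array average), which brings all arrays to a common distribution. Differences are cold-to-warm minus warm-to-cold, fitted by limma with the day as a block, and a call means an adjusted p (Benjamini-Hochberg) under 0.05 among 11156 tested probe sets. Nothing in the labels says that the collections came from separately reared flies, so each p measures the spread between these arrays. In the window fit, that spread includes any change between the times of day pooled within a window.

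The fly circadian clock is built around a transcriptional feedback loop. The CLOCK and CYCLE proteins switch on period (per) and timeless (tim), whose products later enter the nucleus and hold CLOCK and CYCLE back. An interlocked loop runs through vrille (vri), which represses Clock (Clk), and Pdp1, which activates it. Temperature cycles can set this clock in the absence of light, and in heads it runs in clock neurons and also in photoreceptors, glia and fat body.

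The array of AA46, in the warm-to-cold window, stood apart. Its mean correlation with the other arrays was 0.992, against 0.9961 to 0.997 for the 6 cold-to-warm arrays and 0.9965 to 0.9971 for the other warm-to-cold arrays. Its 18S ribosomal RNA controls read 4.09 log2, against 2.81 to 2.99 on the cold-to-warm arrays and 2.78 to 2.97 on the rest of the warm-to-cold arrays. The summed linear level of 6 glial markers was 2863 on AA46, against 3754 to 4615 on the cold-to-warm arrays and 4106 to 4345 on the other warm-to-cold arrays. Several results below are given with and without this array, and the part of glial content or RNA quality in them was not tested. Fewer cells of a type and less RNA per cell cannot be told apart in these pooled whole-head samples. The photoreceptor genes trp, inaD and chp had means of 11.07, 10.98 and 10.93 log2. Among markers of other tissues, 13 of 13 for gut and 9 of 10 for ovary passed the filter on low values. Of the male reproductive markers, 7 of 11 were below it. The neuronal marker elav also fell below the filter, with a mean of 3.19 log2.

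Between the windows, 2 of the 11156 probe sets were called (0.0179%), 1 in each direction. CG31075, which encodes a predicted aldehyde dehydrogenase, rose in the cold-to-warm window, and CG10513, a member of the ecdysteroid kinase-like family, fell. At an unadjusted p under 0.05, 256 probe sets were higher (2.29%) and 314 were lower (2.81%) in the cold-to-warm window. The arrays of the windows did not overlap in 15 probe sets with higher values (0.134%) and 24 with lower values (0.215%). The median difference over all tested probe sets was 0.00067 log2, and the 5th and 95th percentiles were -0.10 and 0.11 log2. Only 9 probe sets differed by more than 0.5 log2. The genes among them were CG31075, Usp8 and vri on the higher side and CG10513, Obp99a, Fmo-2 and Cyp4d21 on the lower side. The other two were higher and have no gene name here, and one of them had the largest difference of all tested probe sets, 0.70 log2. It was not called on all 12 arrays, and without AA46 it was called at 0.72 log2 (limma adjusted p = 0.0156). Another probe set without a gene name here, at 0.45 log2, was called without AA46 at 0.48 (adjusted p = 0.0301). A probe set has no gene name here if its annotation gave several symbols or none. The probe sets at 0.70 and 0.45 log2 are of a type that may cross-hybridize within a gene family.

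**Figure D1:**
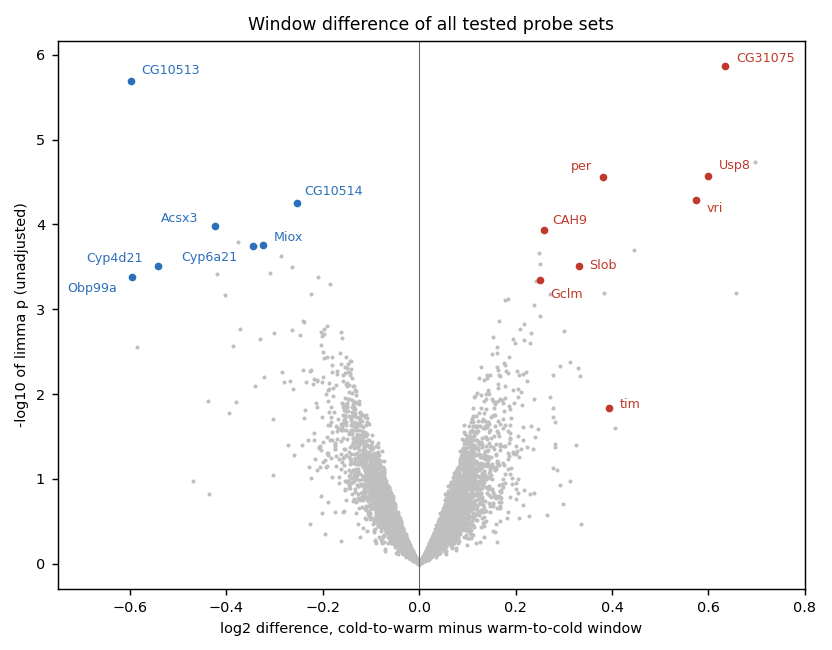
Each point is 1 of 11156 tested probe sets, with the log2 difference between the windows (cold-to-warm minus warm-to-cold) on the horizontal axis and -log10 of the unadjusted limma p on the vertical axis. CG31075 (0.64) and CG10513 (-0.60) stand highest, and an unlabelled point at 0.70, a probe set without a gene name here, lies farthest to the right and above the labelled clock-related genes Usp8, per and vri.

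CG31075 read 9.29, 9.56 and 10.05 log2 (lowest, median and highest) on the 6 cold-to-warm arrays, against 8.56, 9.01 and 9.33 on the warm-to-cold arrays. The windows met only where AA10, at 9.29, lay below AA30, at 9.33. Day 2 readings were higher than day 1 readings at each time of day, so the overlap lay between days and not within one. The difference was 0.64 ± 0.08 log2 (SE), or 1.55-fold, with a limma adjusted p of 0.0114, and it was alike on day 1 (0.64) and day 2 (0.63). With no block for the day, the adjusted p was 0.243. Both called genes lost their call without AA14 (adjusted p = 0.0597), without AA26 (0.0634) or without AA38 (0.052), while their differences stayed between 0.58 and 0.61 log2 in size.

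CG10513 read 5.07, 5.36 and 5.59 log2 on the cold-to-warm arrays, against 5.80, 5.94 and 6.19 on the warm-to-cold arrays. Every cold-to-warm array lay below every warm-to-cold array. The difference was -0.60 ± 0.08 log2, or 1.51-fold, with an adjusted p of 0.0114, and was -0.68 on day 1 and -0.52 on day 2. The neighbouring gene in the RefSeq order, CG10514, belongs to the same family of predicted kinases for small molecules such as ecdysteroids. It read 5.34, 5.39 and 5.52 log2 on the cold-to-warm arrays, against 5.46, 5.68 and 5.78 on the warm-to-cold arrays. The difference of CG10514 was -0.25 ± 0.05 log2 (limma adjusted p = 0.0882), and without AA46, its lowest warm-to-cold array, it was -0.28 with an adjusted p of 0.0117. The genes on either side of this pair, CG11878 and CG11892, had differences of -0.11 and -0.07 log2, with adjusted p of 0.958 and 0.995. This stretch of genes was examined after the value of CG10513 had been seen.

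Of the core clock genes, 7 of 8 passed the filter and 0 were called. With the unadjusted limma p under 0.05, 3 were higher in the cold-to-warm window (per, tim and vri) and 0 were lower, and 2 (per and vri) had windows that did not overlap. The list's median difference was 0.17 log2, against 0.00067 over all tested probe sets, and it was 0.05 without AA46. That median is the value of cwo, which lay lowest on AA46. At an unadjusted limma p under 0.05, 2.29% of all tested probe sets were higher and 2.81% were lower. These shares are the background for every list count below.

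The repressor gene per read 6.43, 6.50 and 6.64 log2 on the cold-to-warm arrays. On the warm-to-cold arrays it read 5.88, 6.13 and 6.32. It differed by 0.38 ± 0.07 log2, or 1.30-fold (limma adjusted p = 0.062). The difference was nearly equal on the days, at 0.38 on each, and without AA46 it was 0.41 with an adjusted p of 0.0117. On day 1 per already stood at 6.46 at 10 h, after 5.88 at 6 h, so that the step between the windows fell within one sampling interval.

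For vri, the values were 8.81, 9.05 and 9.23 log2 on the cold-to-warm arrays, against 8.05, 8.51 and 8.75 on the warm-to-cold arrays. No warm-to-cold array reached the lowest cold-to-warm value. The difference was 0.57 ± 0.10 log2, or 1.49-fold (limma adjusted p = 0.0882), with 0.65 on day 1 and 0.50 on day 2. Without AA46 it was 0.60, with an adjusted p of 0.0198.

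The partner of per, tim, read 8.80, 9.44 and 9.57 log2 on the cold-to-warm arrays, against 8.47, 8.93 and 9.49 on the warm-to-cold arrays. Here the windows overlapped widely: AA10, at 8.80, was the lowest cold-to-warm array, and AA22, at 9.49, was above 3 of the 6 cold-to-warm arrays. The difference of 0.39 ± 0.14 log2 had a limma p of 0.0147 and an adjusted p of 0.781, and its exact permutation p within days was 0.075. It was 0.24 on day 1 and 0.55 on day 2. Another tim probe set, at a lower level, gave 0.33 ± 0.15 log2 (limma adjusted p = 0.924), made up of -0.03 on day 1 and 0.68 on day 2. The remaining tim probe set was below the filter and differed by -0.07 log2.

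The other core clock genes did not separate the windows. Clk, the activator gene, was below the filter, with 3.59, 3.92 and 4.15 log2 on the cold-to-warm arrays, against 3.46, 4.31 and 4.68 on the warm-to-cold arrays. Its mean difference was -0.31 log2, with an exact permutation p within days of 0.1. In the limma fit with no filter, the unadjusted p of Clk was 0.0302. The difference was -0.54 on day 1 and -0.09 on day 2, when AA46 had the lowest value of all arrays. The partner gene of Clk, cyc, differed by -0.09 ± 0.05 log2 (limma adjusted p = 0.974). Pdp1 gave 0.02 ± 0.08, and cry, the gene of the blue-light photoreceptor, gave -0.02 ± 0.07 log2. In cry the times of day within a window pointed opposite ways: the means were 9.59, 9.37 and 9.33 log2 at 10, 14 and 18 h, against 9.36, 9.41 and 9.60 log2 at 22, 2 and 6 h. The repressor gene cwo differed by 0.17 ± 0.11 log2, and its lower probe set by 0.12 ± 0.06 (limma adjusted p = 0.995 and 0.958).

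**Figure D2:**
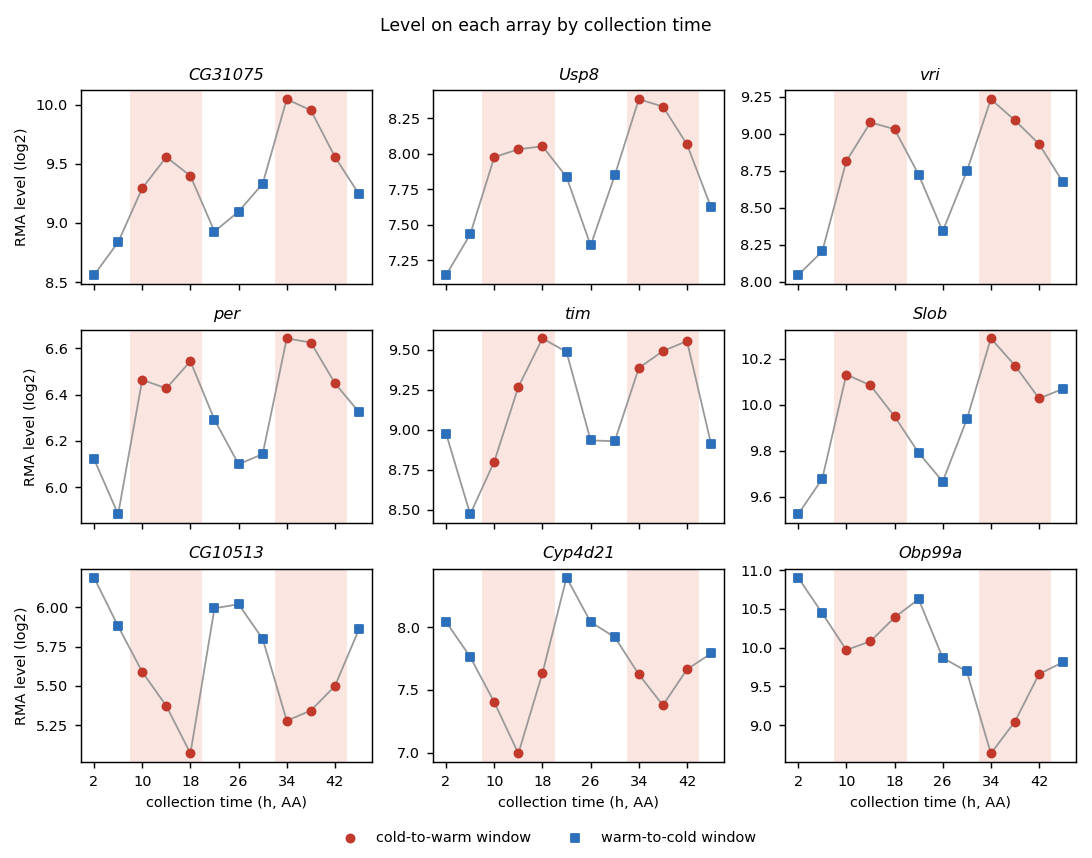
Each panel gives the RMA level (log2, vertical axis) of 1 gene on the 12 arrays by collection time (h, horizontal axis), with circles for the cold-to-warm window, squares for the warm-to-cold window, and shading over the cold-to-warm hours. CG31075, Usp8, vri and per are high in the shaded hours on both days, CG10513, Cyp4d21 and Obp99a are low there, and tim stays high at AA22 (9.49 log2).

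Clock partners are the genes whose products modify or destroy clock proteins. Of 9 on the array, 8 were tested, and at an unadjusted p under 0.05 there was 1 higher (Usp8) and 0 lower. Usp8 encodes a deubiquitinase, an enzyme that removes ubiquitin from other proteins, CLOCK among them. It read 7.98, 8.06 and 8.38 log2 on the cold-to-warm arrays, against 7.15, 7.53 and 7.85 on the warm-to-cold arrays. The windows did not overlap, and the difference of 0.60 ± 0.10 log2, or 1.51-fold, had a limma adjusted p of 0.062. It was 0.55 on day 1 and 0.65 on day 2, and 0.60 without AA46 (adjusted p = 0.0207).

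The differences of the 7 other tested partners lay between -0.04 and 0.08 log2, each with an adjusted p of at least 0.995. They were the kinase gene dco, the ubiquitin ligase genes slmb, jet, Cul1, Cul3 and ctrip, and tws, a regulatory subunit of protein phosphatase. A low AA46 entered several of them. In tws, for example, AA46 read 6.74 log2, and each of the other warm-to-cold arrays read at least 7.35, and the difference was 0.07 with it and -0.04 without it. A lower tws probe set gave 0.16 ± 0.13 log2 (limma adjusted p = 0.995), and a lower ctrip probe set gave -0.01 ± 0.05. The phosphatase subunit gene wdb was below the filter and differed by -0.10 log2.

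**Figure D3:**
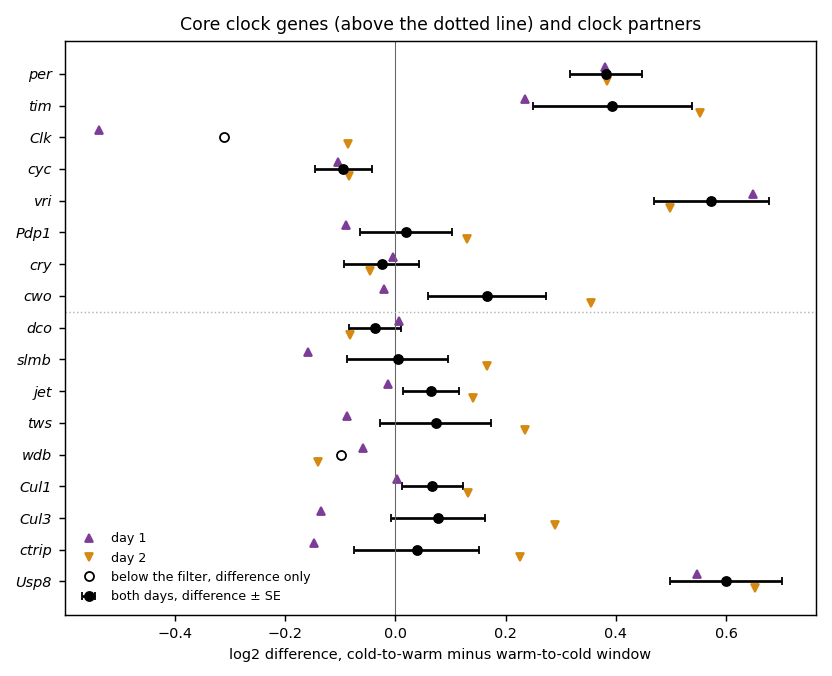
Log2 differences between the windows (horizontal axis, cold-to-warm minus warm-to-cold) of 8 core clock genes, above the dotted line, and 9 clock partners. Black circles with bars give the difference ± SE over both days, open circles mark genes below the filter, and triangles give each day alone. Usp8, vri and per lie well to the right on both days, whereas slmb, Cul3 and ctrip change side between days.

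Among potassium channel genes and the channel regulator Slob, 16 were tested, with 1 higher and 1 lower at an unadjusted p under 0.05. Slob binds the Slowpoke calcium-activated potassium channel. It read 9.95, 10.11 and 10.29 log2 on the cold-to-warm arrays, against 9.53, 9.74 and 10.07 on the warm-to-cold arrays. Only AA46, at 10.07, reached into the cold-to-warm range. The difference was 0.33 ± 0.07 log2, or 1.26-fold (limma adjusted p = 0.175), and 0.38 without AA46 (adjusted p = 0.0187). Another Slob probe set, at a level near 6 log2, gave 0.10 ± 0.06 (limma adjusted p = 0.963). Ork1, a leak potassium channel gene, ran the other way, with 5.84, 6.05 and 6.18 log2 on the cold-to-warm arrays, against 5.76, 6.33 and 6.46 on the warm-to-cold arrays. AA46 held its lowest value, and the difference of -0.22 ± 0.09 log2 (adjusted p = 0.92) was -0.32 without that array (adjusted p = 0.0301).

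In the lipid metabolism list, 32 genes were tested, of which 4 were higher and 7 were lower at an unadjusted p under 0.05, with a median of -0.04 log2. Acsx3, an acyl-CoA synthetase gene, read 7.01, 7.25 and 7.34 log2 on the cold-to-warm arrays, against 7.41, 7.59 and 7.88 on the warm-to-cold arrays. The windows did not overlap, and the difference was -0.42 ± 0.08 log2 (limma adjusted p = 0.143). The carnitine palmitoyltransferase gene whd, whose product admits fatty acids to the mitochondrion, read 9.36, 9.45 and 9.51 log2 on the cold-to-warm arrays, against 9.44, 9.68 and 9.87 on the warm-to-cold arrays. Again AA46 was the one warm-to-cold array within the cold-to-warm range, and the difference of -0.24 ± 0.06 (adjusted p = 0.406) was -0.29 without it (adjusted p = 0.0208).

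The other lipid genes below the unadjusted threshold pointed both ways. CPT2, another carnitine palmitoyltransferase gene, differed by -0.13 log2 (limma adjusted p = 0.791) with windows that did not overlap. The ethanolamine kinase gene eas differed by -0.23, the glycerol kinase genes Gk1 and Gk2 by -0.16 and -0.21, and Hmgs, of the mevalonate pathway, by -0.19 log2. On the higher side were the lipid droplet gene Lsd-1 (0.20), ATPCL (0.19), which makes cytosolic acetyl-CoA, the lipase gene Lip4 (0.18) and the acyltransferase gene Agpat2 (0.11). None of these had an adjusted p under 0.05. The acyl-CoA synthetase gene hll, outside the list, read 6.48, 6.79 and 6.98 log2 on the cold-to-warm arrays, against 6.20, 6.55 and 6.80 on the warm-to-cold arrays (0.27 ± 0.06, adjusted p = 0.236). Without AA46 the difference of hll was 0.30 (adjusted p = 0.0463). So 2 acyl-CoA synthetase genes, Acsx3 and hll, had opposite directions.

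CG1441, a predicted fatty acyl-CoA reductase gene, read 7.62, 7.90 and 7.998 log2 on the cold-to-warm arrays, against 8.08, 8.19 and 8.45 on the warm-to-cold arrays, without overlap (-0.34 ± 0.07, limma adjusted p = 0.156). Miox, which encodes the oxygenase that opens the ring of myo-inositol, read 8.15, 8.24 and 8.39 log2 in the cold-to-warm window, against 8.31, 8.58 and 8.75 in the warm-to-cold window. Its only overlap was between AA10, at 8.39, and AA46, at 8.31, which lay below it. The difference of Miox was -0.32 ± 0.07 log2 (adjusted p = 0.156), and -0.37 without AA46 (adjusted p = 0.0117). CG5618, a predicted decarboxylase gene, differed by -0.38 ± 0.08 and Phyhd1, a predicted phytanoyl-CoA dioxygenase gene, by -0.42 ± 0.09 log2 (adjusted p = 0.156 and 0.196). In Phyhd1 the days differed in level: the cold-to-warm arrays read 8.61 to 8.82 on day 1 and 8.07 to 8.49 on day 2, against warm-to-cold values of 8.80 to 9.25 and 8.44 to 8.86.

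**Figure D4:**
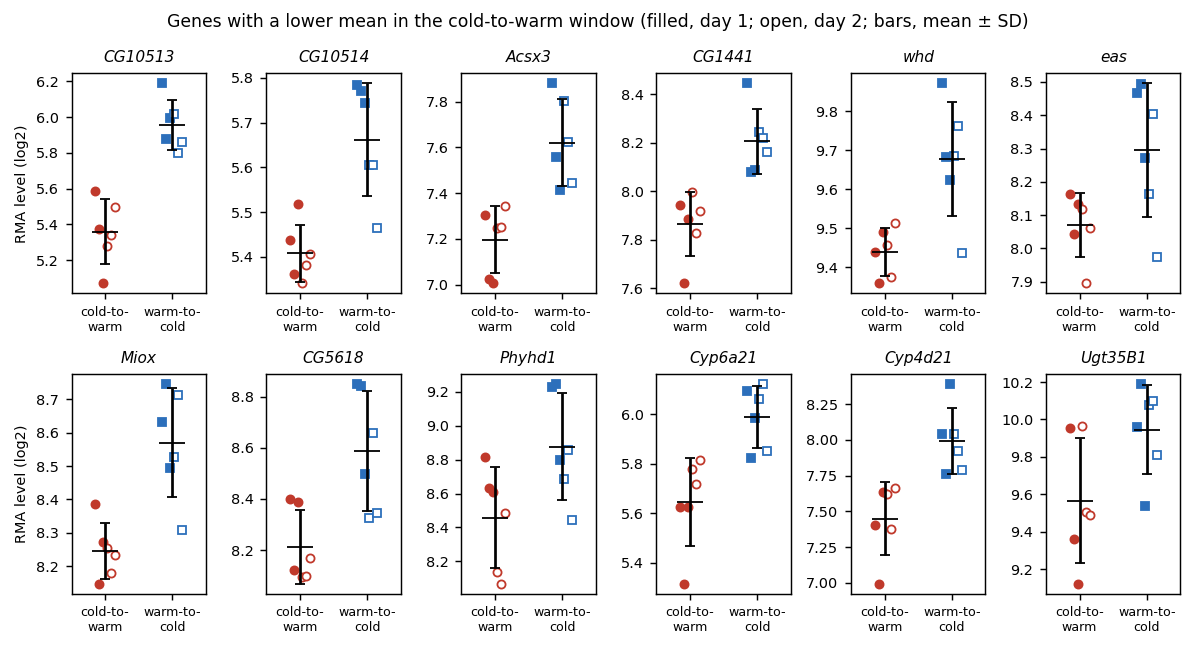
RMA levels (log2, vertical axis, a separate scale for each gene) on the 6 cold-to-warm arrays (circles, left) and the 6 warm-to-cold arrays (squares, right) for 12 genes whose mean was lower in the cold-to-warm window. Filled symbols are day 1, open symbols day 2, and bars give mean ± SD over 6 arrays; CG10513, Acsx3, CG1441 and Cyp4d21 show a gap between the windows, and whd and Miox have 1 open square, AA46, among the cold-to-warm values.

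Cytochrome P450 enzymes oxidize hormones, pheromones and foreign compounds. Of 71 tested members of this list, 1 was higher and 3 were lower at an unadjusted p under 0.05. Over all tested probe sets, 2.29% were higher and 2.81% were lower. The list's median was 0.00033 log2. Its members include Cyp1 (0.055 log2) and Cyp40 (0.072 log2), which are cyclophilin genes and not cytochrome P450 genes. Cyp4d21, known from the head fat body and from males, read 6.995, 7.51 and 7.66 log2 on the cold-to-warm arrays, against 7.76, 7.98 and 8.39 on the warm-to-cold arrays. The difference was -0.54 ± 0.12 log2, or 1.46-fold (limma adjusted p = 0.175), with -0.72 on day 1 and -0.36 on day 2. Cyp6a21 read 5.32, 5.67 and 5.81 log2 in the cold-to-warm window, against 5.82, 6.02 and 6.13 in the warm-to-cold window, and differed by -0.34 ± 0.07 (adjusted p = 0.156). Neither gene overlapped between the windows. Without AA46 the adjusted p was 0.0411 for Cyp4d21 and 0.0149 for Cyp6a21. Cyp317a1 differed by -0.12 ± 0.05 (adjusted p = 0.89), and Cyp4c3 was the one higher member, at 0.10 log2.

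The glutathione and sugar transferases, which attach polar groups to small molecules, had 1 higher and 1 lower member among 52 tested. The shares over all tested probe sets were 2.29% higher and 2.81% lower. Ugt35B1 read 9.12, 9.50 and 9.97 log2 on the cold-to-warm arrays, against 9.54, 10.02 and 10.19 on the warm-to-cold arrays. Both readings at 10 h, 9.95 and 9.97, were within the warm-to-cold range, and the difference of -0.38 ± 0.13 log2 had an adjusted p of 0.742. Its lower probe set gave -0.15 ± 0.06 (limma adjusted p = 0.899). Ugt35C1 differed by 0.15 ± 0.05 (adjusted p = 0.742). In the short list of antioxidants and glutathione synthesis, 1 of 8 tested genes was higher. This was Gclm, the modifier subunit of the enzyme that begins glutathione synthesis, at 8.47, 8.53 and 8.68 log2 on the cold-to-warm arrays, against 8.14, 8.32 and 8.43 on the warm-to-cold arrays. Its windows did not overlap, and it differed by 0.25 ± 0.06 log2 (adjusted p = 0.201).

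Carbonic anhydrases interconvert carbon dioxide and bicarbonate. Of 10 tested, 3 were higher and 0 were lower at an unadjusted p under 0.05, with a list median of -0.00075 log2. CAH9 read 8.43, 8.52 and 8.61 log2 on the cold-to-warm arrays, against 8.18, 8.23 and 8.397 on the warm-to-cold arrays. These ranges did not overlap, and the difference was 0.26 ± 0.05 (limma adjusted p = 0.143), alike on day 1 (0.28) and day 2 (0.24). CAH7 differed by 0.29 ± 0.09 (adjusted p = 0.603) and CAH3 by 0.15 ± 0.06 (adjusted p = 0.839). The difference of CAH3 came from one day, with -0.011 on day 1 and 0.31 on day 2.

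CAH5, named after its values had been seen, had the most negative difference of the family, -0.44 ± 0.29 log2, and an adjusted p of 0.995. It read 6.28, 7.01 and 7.33 log2 on the cold-to-warm arrays, against 6.26, 7.66 and 8.08 on the warm-to-cold arrays. The wide spread came from within the windows. Its means by time of day were 6.54, 6.89 and 7.31 log2 at 10, 14 and 18 h in the cold-to-warm window, against 8.02, 7.66 and 6.36 log2 at 22, 2 and 6 h in the warm-to-cold window. The fit with time of day as a 6-level factor called CAH5 alone between 10 h and 22 h (1 probe set, 0.00896%), by -1.49 log2 with an adjusted p of 0.00211.

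Obp99a, an odorant-binding protein gene, gave the largest negative difference in its list, in which 26 genes were tested with 0 higher and 2 lower at an unadjusted p under 0.05. It read 8.63, 9.81 and 10.39 log2 on the cold-to-warm arrays, against 9.69, 10.16 and 10.91 on the warm-to-cold arrays. The ranges overlapped because the level was lower on day 2. Within days, the cold-to-warm values were 9.97 to 10.39 on day 1 and 8.63 to 9.66 on day 2, against 10.45 to 10.91 and 9.69 to 9.87 in the warm-to-cold window, so the windows were separate on each day. The difference was -0.60 ± 0.13 log2, or 1.51-fold (limma adjusted p = 0.196), with -0.51 on day 1 and -0.68 on day 2. Obp83ef differed by -0.12 ± 0.05 (adjusted p = 0.92).

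Of 14 tested genes for immune peptides and recognition proteins, 1 was higher and 2 were lower. PGRP-SB1, a peptidoglycan recognition protein gene, read 9.78, 9.94 and 10.05 log2 on the cold-to-warm arrays, against 10.08, 10.12 and 10.26 on the warm-to-cold arrays. The windows did not overlap, although the gap was narrow, and the difference was -0.22 ± 0.05 (limma adjusted p = 0.236). The antifungal peptide gene Drs differed by 0.21 ± 0.09 log2, and Def, the defensin gene, by -0.20 ± 0.09 (adjusted p = 0.92 and 0.924). The 8 bomanin genes, which encode short immune-induced peptides, had a median of -0.00017 log2 and 0 members under the threshold.

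In these whole heads, 18 genes of the phototransduction list were tested, with 2 higher, 1 lower and a median of 0.04 log2. The rhodopsin phosphatase gene rdgC differed by 0.25 ± 0.10, the visual G protein gene Gbeta76C by 0.10 ± 0.04, and Pdh, a dehydrogenase gene of the pigment cells, by -0.15 ± 0.05 log2 (adjusted p = 0.868, 0.909 and 0.742). In rdgC nearly all of the difference came from day 2, at 0.46 against 0.04 on day 1. The photoreceptor membrane gene chp, used as a cell marker, read 10.96, 11.0035 and 11.17 log2 on the cold-to-warm arrays, against 10.77, 10.85 and 10.89 on the warm-to-cold arrays. It did not overlap, and differed by 0.19 ± 0.04 (adjusted p = 0.254). Summed over 3 photoreceptor markers, the linear level ran from 5709 to 6826 in the cold-to-warm window, against 5428 to 6710 in the warm-to-cold window, or 5428 to 6101 there without AA46.

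The takeout family, which encodes secreted carriers related to juvenile hormone binding proteins, had 2 higher and 3 lower members of 13 tested. Jhbp12 differed by 0.17 ± 0.06, CG31189 by -0.16 ± 0.05 and Jhbp13 by -0.18 ± 0.07 log2 (adjusted p = 0.742, 0.544 and 0.839). Jhbp3, at -0.15 ± 0.05 log2 (adjusted p = 0.603), was the one tested takeout gene whose windows did not overlap. The cold response list had 1 tested gene, smp-30, which encodes a calcium-binding protein known from cold acclimation. It read 8.02, 8.16 and 8.56 log2 on the cold-to-warm arrays, against 7.72, 7.85 and 8.22 on the warm-to-cold arrays (0.31 ± 0.09, adjusted p = 0.603). Among 14 heat shock and chaperone genes, by contrast, 0 were under an unadjusted p of 0.05 and the differences lay between -0.06 and 0.11 log2.

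Carbohydrate metabolism had 2 higher and 3 lower of 30 tested genes. The sorbitol dehydrogenase gene Sodh1 differed by 0.20 ± 0.07, the isocitrate dehydrogenase gene Idh by -0.18 ± 0.07 and fbp, of gluconeogenesis, by -0.17 ± 0.07 log2 (adjusted p = 0.742, 0.884 and 0.92). In tyrosine and amine metabolism 0 were higher and 2 were lower of 12. These were Hpd, of tyrosine breakdown, at -0.20 ± 0.09, and speck, an acetyltransferase gene of amine turnover, at -0.13 ± 0.06 log2 (adjusted p = 0.945 and 0.924). Of 20 neuropeptide and hormone genes, CCHa2 was the 1 under the threshold (0.19 ± 0.08 log2, adjusted p = 0.924), with AA46, its lowest array, included. Without AA46 the difference of CCHa2 was 0.0997 log2 (adjusted p = 0.565).

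Several other lists gave almost no difference. Oxidative phosphorylation (60 genes), cytosolic ribosomal proteins (31), eye pigment (17) and heat shock had 0 members under an unadjusted p of 0.05 in either direction. Mitochondrial ribosomal proteins had 1 of 64 (mRpL28, -0.13 log2) and the proteasome 1 of 33 (Rpn1, -0.14 log2), both lower. Cuticle proteins had 1 higher (Cpr76Bc, 0.16) and 2 lower (Cpr67B, -0.18, and Cpr31A, -0.15) of 79. The medians of these lists lay within 0.05 log2 of 0.

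The neuronal marker list had 0 higher and 1 lower of 7 tested (brp, of the presynaptic active zone, -0.13 log2), and its other tested probe set of brp gave 0.02. Glial markers had 0 of 6. In fat body, Npc2b was higher (0.18) and Apoltp lower (-0.17), while the storage protein gene Lsp2 differed by -0.09 log2. Muscle had 2 higher of 8, the actin genes Act79B (0.19) and Act87E (0.10), whose probe sets may cross-hybridize with other actins. Male reproductive markers had 1 lower of 4 (Mst87F, -0.12), and gut, ovary, haemocyte and yolk markers had 0. The female-biased gene fit differed by -0.47 log2 (limma adjusted p = 0.981) on all 12 arrays, and was called without the 22 h arrays, at -0.90 log2 (adjusted p = 0.0328). The part of these cell types in the results was not tested.

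**Figure D5:**
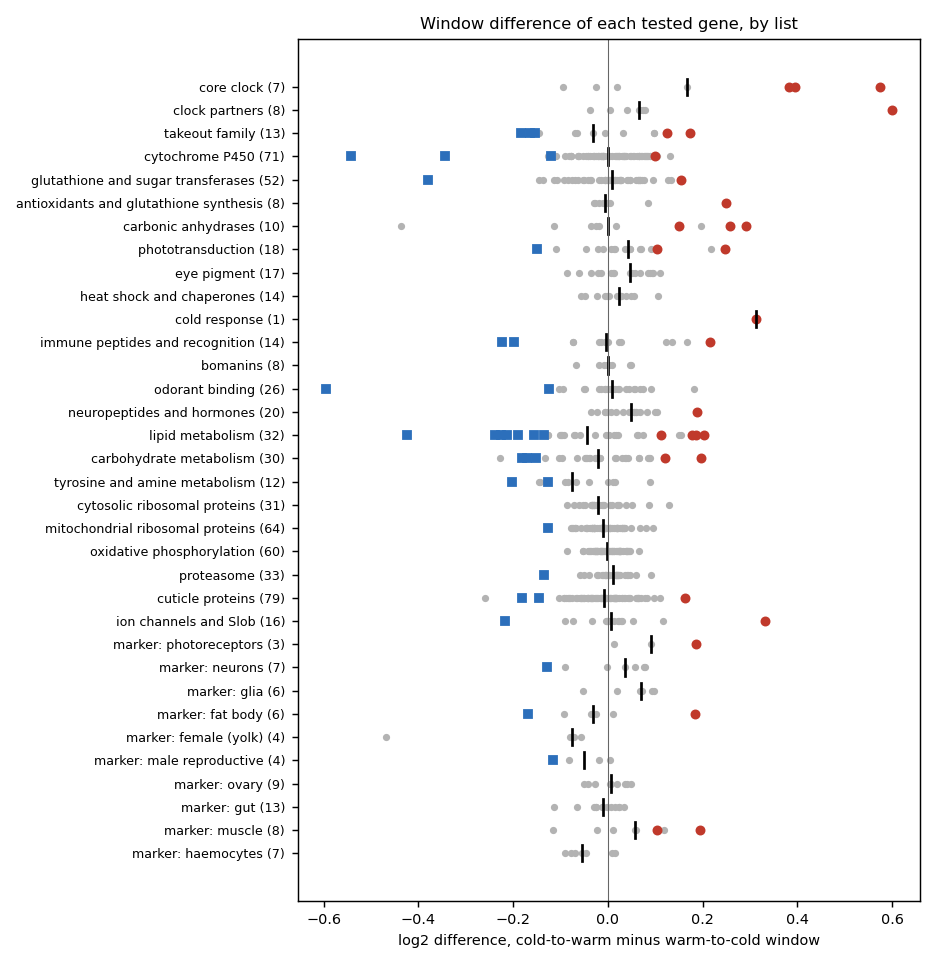
Each point is the log2 difference between the windows (horizontal axis, cold-to-warm minus warm-to-cold) of 1 tested gene, in rows by list with the number of tested genes in parentheses. Red points are higher and blue points lower at an unadjusted limma p under 0.05. Grey points are the rest, and black ticks are list medians. The core clock median is 0.17, and those of the oxidative phosphorylation, ribosomal protein and proteasome lists lie near 0.

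Further genes ranked by p lay outside the lists. On the higher side, comm2, of the commissureless family in axon guidance, read 7.22, 7.41 and 7.51 log2 in the cold-to-warm window, against 6.98, 7.12 and 7.29 in the warm-to-cold window (0.25 ± 0.05, limma adjusted p = 0.161). CG8745, a predicted aminotransferase gene, differed by 0.38 ± 0.09 (adjusted p = 0.236), mostly on day 2, at 0.62 against 0.15 on day 1. CG15449 and CG13532 differed by 0.25 ± 0.05 and 0.24 ± 0.06 (adjusted p = 0.175 and 0.201). On the lower side, CG15369 differed by -0.29 ± 0.06, CG17127 by -0.26 ± 0.06 and the zinc transporter gene ZnT77C by -0.31 ± 0.07 log2 (adjusted p = 0.163, 0.175 and 0.196). In all, 24 probe sets had an adjusted p under 0.2.

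Leaving out AA46 raised the calls to 28 (0.251%), 9 higher and 19 lower, and the 2 original calls were among them. The clock-related genes per, vri, Usp8 and Slob were called then, and so were hll, Acsx3, whd, Miox, CG1441, CG5618, Phyhd1, Cyp6a21 and Cyp4d21. The flavin monooxygenase gene Fmo-2 had the largest of these differences among named genes. Including AA46, it read 4.45, 4.73 and 5.05 log2 on the cold-to-warm arrays, against 4.5, 5.43 and 5.80 on the warm-to-cold arrays, where AA46 held the lowest value (-0.58 ± 0.16, adjusted p = 0.482). Without AA46 its difference was -0.73 log2 (adjusted p = 0.0181). CG15096, Hmgs and lace, of sphingolipid synthesis, were -0.47, -0.26 and -0.27 without AA46 (adjusted p = 0.0198, 0.0463 and 0.0463). These genes were singled out after their values had been seen.

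Leaving out both arrays at 22 h, AA22 and AA46, gave 76 calls (0.681%), 30 higher and 46 lower, which held all 28 called without AA46. The contrast is then between 10, 14 and 18 h and 2 and 6 h alone. The differences were 0.46 for per, 0.69 for vri, 0.69 for Usp8 and 0.52 for tim, with adjusted p of 0.00184 for the first 3 and 0.0511 for tim. In per, vri and Usp8 the 22 h means of 6.31, 8.70 and 7.73 log2 lay between those of 18 h (6.50, 8.98 and 8.06) and those of 2 h (6.11, 8.19 and 7.25). The days were then compared within the model. For the difference between days in the window effect, 0 probe sets were called (0%), with 0.252 as the lowest adjusted p. Of 11156 probe sets, 1317 had an unadjusted limma p under 0.05, against 570 for the window difference itself. Without AA46 these counts were 1094 and 1063. With array weights estimated in the window-by-day fit, 224 were called, and those weights are not given here. In the window fit, AA46 had a weight of 0.201 against 0.699 to 1.60 for the others. For CG31075, CG10513, per, vri and Usp8 the difference between days was between -0.15 and 0.16 log2, with unadjusted p from 0.346 to 0.978.

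The windows were set beside the other division of the same arrays into half-days, subjective thermophase (14, 18 and 22 h) against subjective cryophase (2, 6 and 10 h). That comparison shares all 12 arrays, differs only in where 10 h and 22 h are placed, and called 38 probe sets (0.341%). For CG31075 the thermophase minus cryophase difference was 0.25 log2 (limma adjusted p = 0.728), beside 0.64 between the windows, and 10 h differed from 22 h by 0.59 ± 0.12 (unadjusted p = 0.000313, adjusted p = 0.211). CG10513 gave -0.27 beside -0.60, and 10 h differed from 22 h by -0.49 ± 0.14 (adjusted p = 0.697). For Obp99a the values were 0.02 and -0.60, with -0.92 ± 0.13 between 10 h and 22 h (adjusted p = 0.0518).

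Some genes had the wider difference in the half-day division. Ugt35B1 gave -0.57 between thermophase and cryophase (adjusted p = 0.00418), beside -0.38 between the windows, and Idh gave -0.30 (adjusted p = 0.00743) beside -0.18. CAH7 gave 0.36 (adjusted p = 0.0319) beside 0.29, and Jhbp13 -0.29 (adjusted p = 0.0107) beside -0.18. On all 12 arrays Fmo-2 and CG15096 were called in the half-day division, at -0.70 and -0.45 log2 (adjusted p = 0.0284 and 0.0217), beside -0.58 and -0.40 between the windows. For tim the values were 0.46 and 0.39, and for per they were 0.22 and 0.38 (adjusted p between thermophase and cryophase = 0.214 and 0.566). None of these genes was called for 10 h against 22 h, so the larger difference of a gene in one division was not shown to exceed that in the other.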

How the data were processed

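The deposited table holds log2 expression values that the authors computed with RMA (version not given in the sources used here) from 12 Affymetrix arrays, 1 for each collection of pooled heads, and these were used as deposited. No counts or depths apply, and the number of arrays limits the precision. All 12 arrays were used. Of 14010 probe sets, 44 controls were left out. A probe set was tested if more than 50% of its values lay above the 20th percentile of their array, which left 11156. Symbols came from the platform annotation and were updated through RefSeq, with 1 symbol for 12442 probe sets, several for 327 and none for 1197. Windows were taken from the collection times in the labels. The values were fitted with lmFit and eBayes (limma 3.58.1, R 4.3.3) with the day as a block, and p-values were adjusted by Benjamini-Hochberg over all tested probe sets. For single genes, exact two-sided permutation tests exchanged window labels within days. The limma window fit was also run on simulated arrays with known differences and independent noise. The permutation tests and the other fits were not tested in this way, and no array like AA46 was simulated.

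Named genes were all clock genes and partners, the called genes completed to 12 in each direction by lowest p, and up to 3 genes of each list with an unadjusted p under 0.05. The probe set with the highest mean stood for a gene in its list. Some genes named beyond this rule are marked in the text. Others are not marked there and were named with their values known. They include CPT2, Gk1, Gk2, Lsd-1, ATPCL, Lip4, Agpat2, Cyp4c3, Jhbp3, Lsp2 and fit. The markers trp, inaD and elav, and Cyp1 and Cyp40, also lie outside the rule. The comparison, the members and the lists were chosen with earlier results of these data known. Alternatives covered the day block, time of day, filters, normalization, array weights, the prior, the windows, single days and each array left out. No sequences or coordinates were used here. Tables were handled with Python 3.11.15, numpy 2.4.6 and pandas 2.3.3.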

Additional observations from a re-analysis of the deposited data

Results flagged for a closer look

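Within each window, the highest or lowest of the 6 arrays was compared with the rest by Dixon's ratio, the gap to the nearest array divided by the whole range. Of 178 groups of 6 arrays tested, 20 passed the 95% critical value, and 12 of these were on AA46. Chance flags about 1 in 20 groups.

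For the quality measures and summed markers, AA46 stood apart from the other warm-to-cold arrays in its mean correlation with other arrays (ratio 0.868), its 18S ribosomal RNA controls (0.849) and its summed glial markers (0.839). The summed male reproductive and ovary markers were highest on AA46, with ratios of 0.65 and 0.692. The male reproductive sum was 366.2 there, against 316 to 333.6 on the other warm-to-cold arrays, and the ovary sum was 968.3, against 821.5 to 866.7.

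Of the genes, tws read lowest on AA46 with a ratio of 0.92, and so did Cul3 (0.718), slmb (0.635) and ctrip (0.64). CG31189, CCHa2 and Ork1 were likewise lowest on AA46, with ratios of 0.691, 0.775 and 0.778. Elsewhere, Pdp1 was lowest at AA10 among the cold-to-warm arrays (5.95 log2, ratio 0.663) and highest at AA22 among the warm-to-cold arrays (6.57 log2, ratio 0.689). For slmb, AA10 was also the lowest cold-to-warm array (ratio 0.747), and for Hpd it was the highest (ratio 0.689). In jet, AA38 was the highest cold-to-warm array (ratio 0.809) and AA26 the lowest warm-to-cold array (ratio 0.714). Cpr31A was highest at AA14 (ratio 0.742) and chp at AA34 (ratio 0.783), both in the cold-to-warm window.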

How the results depend on the processing

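The count of 2 called probe sets was unchanged with no filter, a stricter filter, a 40th percentile filter, median centring, quantile normalization, or a trended robust prior. It was 1 with no day block, 19 with time of day as 6 levels, 4 with narrow windows, 27 with array weights, 76 without the 22 h arrays, 5 on day 1 alone and 0 on day 2 alone. Leaving out each array in turn gave 0 to 28 calls: 0 without AA14, AA26 or AA38, 5 without AA22, 4 without AA34, 28 without AA46 and 2 otherwise. For window by day, array weights gave 224 calls against 0, and 10 h against 22 h gave 1 to 2 calls with and without AA46. The cause of these changes was not tested.

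Differences that changed sign, such as the log2 difference of Pdp1 and the log2 difference of tws, were all small and uncalled. On day 1 alone they were -0.09 for Pdp1, -0.021 for cwo, 0.0073 for dco, -0.16 for slmb, -0.013 for jet, -0.088 for tws, -0.13 for Cul3, -0.15 for ctrip and -0.011 for CAH3. With array weights they were -0.011 for Pdp1, -0.094 for slmb, -0.0404 for tws, -0.012 for Cul3 and -0.095 for ctrip. Narrow windows gave -0.076 for Pdp1 and 0.098 for cry. Without the 22 h arrays they were -0.12 for slmb, -0.036 for tws and -0.095 for ctrip. With each array left out in turn the ranges were -0.0078 to 0.10 for Pdp1, -0.068 to 0.019 for cry, -0.094 to 0.0499 for slmb, -0.037 to 0.11 for tws, -0.0006 to 0.11 for Cul3 and -0.081 to 0.11 for ctrip. With 1 array for each collection, spread between flies and between hybridizations cannot be told apart.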
